A study of Mus musculus with 4 samples.

Results

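Genes named Zfp encode mouse zinc finger proteins, most of which read DNA through a row of fingers of the C2H2 type, each a short fold held by 2 cysteines and 2 histidines around a zinc ion. A large share of them also carries a KRAB box, which binds the corepressor Trim28. Trim28 brings in the histone methyltransferase Setdb1 and heterochromatin proteins, and this machinery is known for silencing transposable elements and guarding imprinted genes. KRAB genes lie in clusters of near copies and evolve fast, whereas Zfp genes without the box, such as Zfp281 or Zfp423, tend to be conserved regulators of development and of cell identity. The genes described here are the 225 protein-coding Zfp genes selected on their normalized read count, with a mean of at least 100 over 4 libraries. They were taken from 358 protein-coding Zfp genes and from 39179 genes in the whole table. The CCCH proteins Zfp36, Zfp36l1, Zfp36l2 and Zfp36l3, which bind messenger RNA, were left out by name.

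The libraries came from primary aortic smooth muscle cells of mice, the cells that set the tone of the artery. In 2 libraries the cells were from Sm-Yap/Taz-KO mice, in which the Hippo pathway co-activators YAP (Yap1) and TAZ (Wwtr1) had been targeted, and in 2 libraries from wild-type (WT) mice. Tamoxifen had been given to both groups and RNA was taken 18 days after it. The sources used here do not give the promoter behind the deletion, the strain or the age of the mice, or say whether libraries of 1 group stand for separate animals. P-values therefore cover no more than the spread among these 4 samples, part of which may be technical. Normalized counts summed to 13861333 and 13279332 in KO libraries and to 14235444 and 14519178 in WT libraries. Reads on genes, estimated from the steps between rounded values, were 12300000 and 11810000 in KO libraries and 15620000 and 16810000 in WT libraries.

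The targeted genes checked the labels first. Yap1 had 947 and 962 normalized reads in KO libraries, against 1966 and 1877 in WT libraries (log2 fold change -1.01 ± 0.10 SE, limma adjusted p = 0.0080). Wwtr1 had 2848 and 2466 in KO and 3423 and 4016 in WT libraries (-0.48 ± 0.13 SE, limma adjusted p = 0.055), which did not pass the threshold of 0.05. Cell type markers differed in level between the groups. The 8 smooth muscle markers summed to between 109951 and 140567 in KO libraries and between 376053 and 396462 in WT libraries. All 8 had a log2 fold change below 0, and 7 of the 8 were called lower in KO (limma adjusted p under 0.05). Macrophage markers summed to between 12279 and 15702 in KO and between 1170 and 3249 in WT libraries, with all 10 called higher in KO. The sums of 8 fibroblast markers were 174685 to 185049 in KO and 44885 to 103842 in WT. Of these, 1 of 8 was called higher, and all 8 were higher at limma's unadjusted p under 0.05. Col1a1 made up most of the sums, with 128268 and 150818 in KO and 33730 and 81139 in WT libraries. Endothelial markers summed to 10692 to 12415 in KO and 4578 to 6866 in WT (5 of 8 called higher), and adipocyte markers to 10862 to 11812 in KO and 1394 to 4052 in WT (6 of 8 called higher). Proliferation markers reached 3011 to 4561 in KO and 265 to 641 in WT (4 of 6 called higher), and Schwann cell markers 515 to 577 in KO and 192 to 400 in WT (1 of 4 called higher). Every endothelial, adipocyte, proliferation and Schwann cell marker had a log2 fold change above 0. T cell markers stayed at 49 to 107 in KO and 12 to 15 in WT, and B cell markers at 14 to 17 in KO and 8 to 9 in WT. No marker was at 0 in all 4 libraries. In bulk RNA, fewer cells of a type and less RNA per cell cannot be told apart, and the part of the cell mix in the results below was not tested.

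In KO libraries, most of these Zfp genes stood a little below WT, and a few stood far above. The largest rises were in Zfp217, Zfp521 and Zfp462, which were 3.29-fold, 2.63-fold and 2.41-fold higher in KO. The strongest falls included Zfp568, which represses a placental Igf2 transcript, and Zfp809, which silences proviruses, at 0.415-fold and 0.442-fold of WT. In the limma test over all 15058 genes with a mean of at least 10, 5 of the 225 genes were higher in KO, where 9.58% of all genes tested were called higher. In the other direction 22 of the 225 were lower in KO, where 6.7% of all genes tested were called lower. The remaining 198 did not pass. Among the 9881 genes of like level, with a mean of at least 100, 10.6% were called higher and 9.3% lower. The Zfp share called lower, 9.78%, is close to that background, and the share called higher, 2.22%, is below it. These calls rest on all 4 libraries: leaving out either KO library or WT replicate 1 left 0 Zfp calls, and leaving out WT replicate 2 left 2 higher (Zfp462 and Zfp521) and 0 lower.

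Most genes of the family that did not pass also leaned down. The median log2 fold change, KO minus WT, was -0.22 over the 225 genes (quartiles -0.44 and -0.07, range -1.38 to 1.71), beside -0.04 over genes of like level and -0.02 over all genes tested. A log2 fold change below 0 was found for 180 of the 225 genes (80.0%), against 54.9% of genes of like level and 52.1% of all genes tested. Both KO libraries lay below both WT libraries for 136 genes (60.4%), where the background was 32.1% of all genes tested and 36.9% of those of like level. Both KO libraries lay above both WT libraries for 15 genes (6.67%), where the background was 30.7% and 29.7%. Groups overlapped for the other 74. At an unadjusted p under 0.05, 71 genes were lower and 7 higher, beside 18.8% lower and 18.1% higher among the genes of like level. With libraries rescaled to the same total the median was -0.14, and with quantile normalization it was -0.31. The median over all genes tested moved alongside, to 0.06 and -0.10. The size of the Zfp median thus depends on scaling while its sign did not, and it stayed below that of all genes in both. Summed normalized counts of the 225 genes were 118867 and 112724 in KO and 136533 and 135371 in WT libraries. As a share of each library total, they took 0.858% and 0.849% in KO libraries and 0.959% and 0.932% in WT libraries. Both KO shares lay below both WT shares.

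The mean over all libraries chose the genes, and it does not use the difference between groups. Of the 225, 210 had a mean of at least 100 in each group, and 5 of these were higher (2.38%) and 18 lower (8.57%) in KO. Among genes of like level, 10.6% were called higher and 9.3% lower. Of the 210, 166 had a log2 fold change below 0, and their median was -0.21. Both KO libraries lay below both WT libraries for 123 of them. Another 14 reached the threshold through WT libraries alone, 4 of them called lower, and Zfp472 reached it through KO libraries alone. Those 14 have KO means below WT means by that choice, so their 4 calls are not read as a result. Just inside the threshold lay Zfp112 with a mean of 103.5, Zfp472 with 102 and Zfp579 with 101.5. Just outside lay Zfp697 with 99.25, Zfp51 with 97.25 and Zfp354a with 97. Of the 133 Zfp genes left out, 100 had a mean of at least 10 and were tested, and their log2 fold changes had a median of -0.39. In that lower set, Zfp366, known in humans as a dendritic cell factor, was called higher (81 and 129 in KO, 15 and 36 in WT) and Zfp599 lower (19 and 10 in KO, 51 and 52 in WT).

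**Figure D1:**
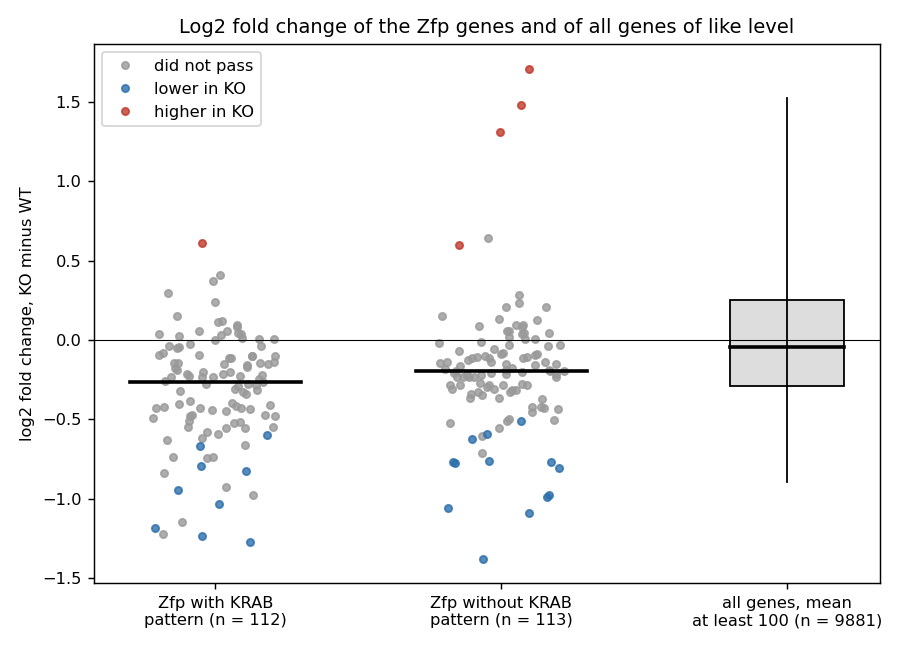
Log2 fold change, KO minus WT, of each of 112 Zfp genes with a KRAB pattern and 113 without, with bars at the medians (-0.26 and -0.20). The 113 include Zfp939, which had no annotated protein. The box gives the quartiles and median of 9881 genes with a mean of at least 100 and its whiskers the 5th and 95th percentiles (-0.89 and 1.52); red points were called higher in KO, blue ones lower, grey ones did not pass.

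Zfp217 showed the largest rise. Human ZNF217 is an oncogene whose protein works with the CtBP and CoREST corepressors. Its mouse gene (chr2:170108643-170148103, minus strand, GRCm38) had 389 and 531 normalized reads in KO libraries, against 118 and 162 in WT libraries (log2 fold change 1.71 ± 0.24 SE, limma adjusted p = 0.012). Both KO values lay far above both WT values. Zfp521 encodes a partner of the Ebf factors that restrains adipocyte commitment. It had 878 and 839 in KO and 216 and 436 in WT libraries (1.48 ± 0.32 SE, limma adjusted p = 0.031). Zfp462, a chromatin factor with heterochromatin roles in mouse stem cells, lies at chr4:54945048-55083563 on the plus strand. It had 552 and 532 in KO and 169 and 280 in WT libraries (1.31 ± 0.25 SE, limma adjusted p = 0.023). Within WT, replicate 1 was the lower library for Zfp217, Zfp521 and Zfp462. It was also lower for sums of fibroblast, macrophage, endothelial, adipocyte, proliferation and Schwann cell markers. For sums of smooth muscle, T cell and B cell markers it was the higher library. Within KO, replicate 1 was lower for fibroblast, macrophage, proliferation, Schwann cell and T cell sums and for Zfp217. It was higher there for smooth muscle, endothelial, adipocyte and B cell sums and for Zfp521 and Zfp462. The part of other cell types in these rises was not tested.

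Zfp281 was the family gene with the highest level per exon length, at a mean of 541 normalized reads per kb. It encodes a GC-box binding factor known from pluripotent cells. Its counts were 3077 and 3362 in KO and 2094 and 2156 in WT libraries (log2 fold change 0.60 ± 0.10 SE, limma adjusted p = 0.018), so the groups stood well apart. Its close relative Zfp148 had 2297 and 2304 in KO and 2660 and 2745 in WT libraries, a log2 fold change of -0.23 ± 0.09 SE that did not pass (limma adjusted p = 0.154). Zfp948 was the single KRAB gene called higher, with 341 and 374 in KO and 220 and 247 in WT libraries (0.61 ± 0.16 SE, limma adjusted p = 0.0499). That call lay at the threshold and was lost with a pseudocount of 0.5 and with quantile normalization. Zfp385a, an RNA-binding p53 target, had 187 and 182 in KO and 108 and 129 in WT libraries, and its log2 fold change of 0.64 ± 0.20 SE did not pass (limma adjusted p = 0.085).

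**Figure D2:**
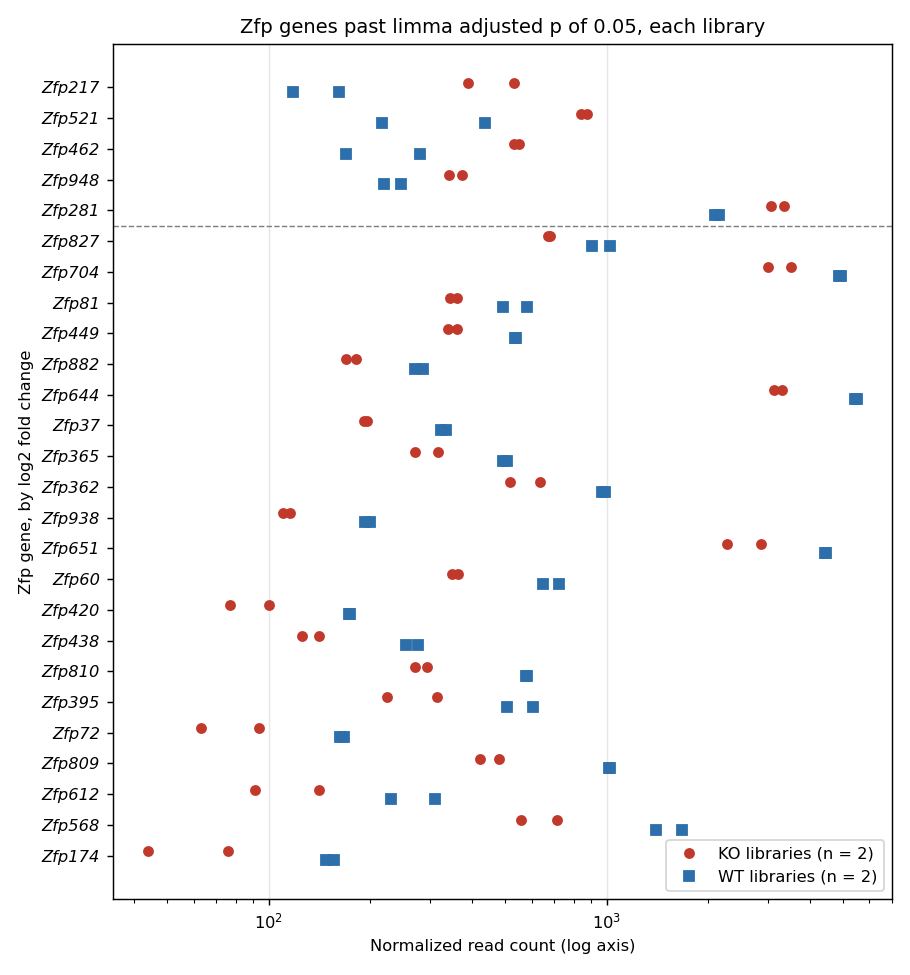
Normalized read counts (log axis) of called Zfp genes in each of 2 KO libraries (red circles) and 2 WT libraries (blue squares), ordered by log2 fold change, without genes that share sequence or exons. The 5 genes above the dashed line have both KO values above both WT values, and the 21 below it have both KO values below.

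The KRAB genes called lower included a pair with known targets, Zfp568 and Zfp809. Zfp568 (chr7:29983955-30028282, plus strand) had 559 and 715 normalized reads in KO libraries, against 1401 and 1671 in WT libraries (log2 fold change -1.27 ± 0.16 SE, limma adjusted p = 0.011). Zfp809, which recognises the primer binding site of murine leukemia viruses, lies at chr9:22225714-22243354 on the plus strand. It had 480 and 422 in KO and 1019 and 1023 in WT libraries (-1.18 ± 0.12 SE, limma adjusted p = 0.0082). Zfp810, on the same chromosome, had 295 and 272 in KO and 579 and 580 in WT libraries (-1.03 ± 0.13 SE, limma adjusted p = 0.011). In each of these genes both KO values lay far below both WT values. Zfp612 had 141 and 91 in KO and 311 and 231 in WT libraries (-1.24 ± 0.28 SE, limma adjusted p = 0.037), and Zfp60 had 348 and 364 in KO and 723 and 649 in WT libraries (-0.94 ± 0.13 SE, limma adjusted p = 0.012). Smaller falls passed for Zfp938, Zfp882 and Zfp81, with log2 fold changes of -0.79, -0.67 and -0.60. Those 3 calls were lost with libraries rescaled to the same total.

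Genes without the KRAB pattern that were called lower included several with high counts. Zfp644, a partner of the histone methyltransferases G9a and GLP, had 3304 and 3136 in KO and 5512 and 5422 in WT libraries (log2 fold change -0.76 ± 0.10 SE, limma adjusted p = 0.010). Zfp651, now also named Zbtb47, had 2868 and 2267 in KO and 4475 and 4436 in WT libraries (-0.80 ± 0.14 SE, limma adjusted p = 0.018). Its relative Zfp652 had 3597 and 3245 in KO and 3803 and 4085 in WT libraries, and its difference of -0.21 ± 0.11 SE did not pass (limma adjusted p = 0.243). Zfp704, first known as a glucocorticoid-induced gene, had 3511 and 3012 in KO and 4927 and 4885 in WT libraries (-0.59 ± 0.11 SE, limma adjusted p = 0.023). For all 4 genes the KO libraries lay below the WT libraries. Zfp362 had 634 and 519 in KO and 990 and 970 in WT libraries (-0.77 ± 0.14 SE, limma adjusted p = 0.020), and Zfp827, whose human counterpart recruits the NuRD complex to telomeres, had 681 and 673 in KO and 1026 and 905 in WT libraries (-0.51 ± 0.12 SE, limma adjusted p = 0.040).

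The other falling genes without the pattern were expressed at lower levels. Among them, Zfp174, Zfp72 and Zfp420 reached the mean of 100 through WT libraries alone, with KO means of 60.0, 78.5 and 88.5. Zfp174, whose human counterpart carries a SCAN domain, had the lowest fold change of the 225, with 76 and 44 in KO and 156 and 148 in WT libraries (log2 fold change -1.38 ± 0.32 SE, limma adjusted p = 0.039). Zfp395, a hypoxia-induced gene in human cells, had 315 and 224 in KO and 604 and 508 in WT libraries (-1.06 ± 0.21 SE, limma adjusted p = 0.025). Zfp72 had 94 and 63 in KO and 167 and 163 in WT libraries (-1.09 ± 0.27 SE, limma adjusted p = 0.045). The KO values of these 3 genes spread more, relative to their mean, than those of Zfp644 or Zfp809. Zfp438 had 141 and 126 in KO and 255 and 276 in WT libraries (-0.99 ± 0.18 SE, limma adjusted p = 0.021), and Zfp420 had 77 and 100 in KO and 173 and 174 in WT libraries (-0.98 ± 0.23 SE, limma adjusted p = 0.040). Zfp365, whose human counterpart guards genome stability, had 271 and 317 in KO and 506 and 494 in WT libraries (-0.77 ± 0.15 SE, limma adjusted p = 0.024). Zfp37 and Zfp449 also fell, by 0.77 and 0.62 on the log2 scale. The calls of Zfp420 and Zfp827 were lost with libraries rescaled to the same total.

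Promoters are shown for called genes whose RefSeq start (assembly GRCm38.p6) lies close to the annotated gene start. Zfp281 and Zfp948 were called higher in KO and Zfp809 lower, and all 3 starts agree within 30 bases. Zfp644 and Zfp72 were called lower and are shown because they are the called genes with a TEAD motif. Each line runs 5′ to 3′ over 250 bases before and 50 after the start, and capitals mark the TEAD motif GGAATG, which here reads CATTCC on the printed strand. The positions are chr1:136624651-136624950 (plus strand) for Zfp281, chr17:21566728-21567027 (plus) for Zfp948 and chr9:22225462-22225761 (plus) for Zfp809. Zfp644 is at chr5:106696781-106697080 (minus), 457 bases from the annotated gene start, and Zfp72 at chr13:74390780-74391079 (minus).
Zfp281: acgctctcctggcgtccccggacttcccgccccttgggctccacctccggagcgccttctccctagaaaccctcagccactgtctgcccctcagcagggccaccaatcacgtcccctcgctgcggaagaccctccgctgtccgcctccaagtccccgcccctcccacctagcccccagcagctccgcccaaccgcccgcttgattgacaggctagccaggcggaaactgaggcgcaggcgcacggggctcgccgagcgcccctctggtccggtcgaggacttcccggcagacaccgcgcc
Zfp948: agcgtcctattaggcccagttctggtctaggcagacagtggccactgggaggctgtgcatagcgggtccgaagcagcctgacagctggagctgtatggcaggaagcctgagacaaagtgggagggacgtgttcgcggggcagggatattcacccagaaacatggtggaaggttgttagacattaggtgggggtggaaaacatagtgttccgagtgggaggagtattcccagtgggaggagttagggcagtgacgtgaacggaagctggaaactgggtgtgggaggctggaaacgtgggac
Zfp809: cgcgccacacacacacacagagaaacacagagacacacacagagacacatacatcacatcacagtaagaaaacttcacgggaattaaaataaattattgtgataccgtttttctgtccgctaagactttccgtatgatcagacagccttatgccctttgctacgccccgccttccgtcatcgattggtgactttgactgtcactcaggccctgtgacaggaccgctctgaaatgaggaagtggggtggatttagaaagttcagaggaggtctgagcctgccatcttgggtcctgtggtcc
Zfp644: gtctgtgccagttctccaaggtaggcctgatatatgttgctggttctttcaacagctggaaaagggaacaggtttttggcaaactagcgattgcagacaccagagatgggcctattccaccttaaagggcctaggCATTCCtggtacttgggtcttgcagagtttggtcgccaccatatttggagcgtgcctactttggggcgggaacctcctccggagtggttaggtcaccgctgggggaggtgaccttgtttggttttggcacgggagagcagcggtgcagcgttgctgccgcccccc
Zfp72: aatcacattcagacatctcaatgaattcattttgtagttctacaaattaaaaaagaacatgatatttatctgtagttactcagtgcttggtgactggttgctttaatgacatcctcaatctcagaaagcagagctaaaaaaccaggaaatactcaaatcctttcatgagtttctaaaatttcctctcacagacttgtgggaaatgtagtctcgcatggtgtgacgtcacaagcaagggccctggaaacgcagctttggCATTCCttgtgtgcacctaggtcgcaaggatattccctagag

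These promoters differ in base composition. GC content was 70.7% for Zfp281, with 27 CpG pairs in the 300 bases, and 40.0% for Zfp72, with 4 CpG pairs. TEAD factors are the DNA-binding partners of YAP and TAZ, and AP-1 factors often bind beside them. A promoter was matched for 184 of the 225 genes, at the RefSeq start nearest the annotated gene start. For the background of all genes, the start listed first by position was taken. The shares below therefore rest on unlike choices of start. GGAATG on either strand was found in 20 of these 184 (10.9%), against 14.6% of 27025 promoters of all genes. The AP-1 motif TGANTCA, which reads the same on both strands, was in 6 of the 184 (3.26%), against 7.91% of all promoters. Among called genes with a matched promoter, the TEAD motif was in 0 of 3 that were higher and 2 of 14 that were lower, and the AP-1 motif was in none of these 17. A motif match describes these windows and does not show binding, and a missing match says nothing of the factor.

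Genes with and without a KRAB box were compared next. The KRAB A-box pattern, 12 defined positions in a stretch of 18 residues with up to 3 mismatches, was found in the annotated proteins of 112 genes. The other 113 are counted as without it, and they include Zfp939, which had no annotated protein and was not examined. Of the KRAB genes 1 was called higher (0.893%) and 9 lower (8.04%), their median log2 fold change was -0.26, and 91 of 112 were below 0. Without the pattern, 4 were higher (3.54%) and 13 lower (11.5%), with a median of -0.20 and 89 of 113 below 0. The difference between these medians was not tested. Among genes of like level, 10.6% were called higher and 9.3% lower. The share called lower in each class is near that background, and the share called higher is below it. In level per exon length, KRAB genes had a median of 53.4 normalized reads per kb over the 4 libraries, and the others 81.7. As a share of library totals, KRAB genes took 0.273% and 0.265% in KO and 0.321% and 0.304% in WT libraries. The genes without the pattern took 0.585% and 0.583% in KO and 0.638% and 0.628% in WT libraries, so both classes had lower shares in both KO libraries.

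The number of fingers was set beside the size of the change. A C2H2 finger pattern was counted in the proteins of 224 genes, with a median of 10 fingers and a range of 0 to 36, the highest being Zfp142. Genes with 10 or more fingers (126) had a median log2 fold change of -0.26, genes with 1 to 9 (91) had -0.20, and 7 with 0 had -0.04. Those 7 were Zfp365, Zfp839, Zfp703, Zfp935, Zfp330, Zfp503 and Zfp259. Across genes, which are not independent replicates, Spearman's rho with the log2 fold change was -0.03 for fingers (n = 224), -0.03 for exon length (n = 225) and 0.14 for level per kb (n = 225). Fold changes of low genes are understated by the pseudocount, which touches the last of these.

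**Figure D3:**
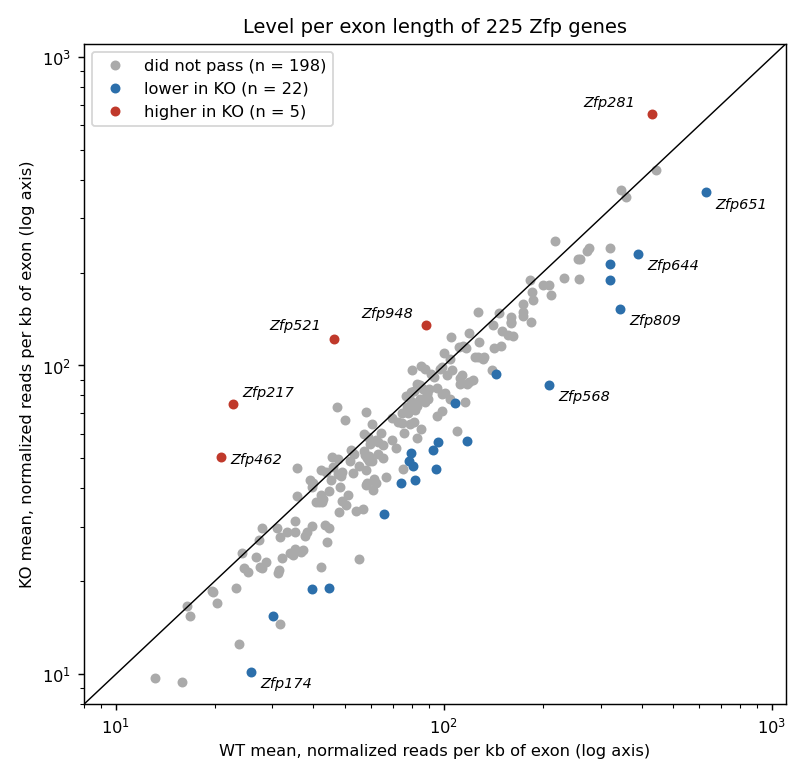
Mean normalized reads per kb of exon of the 225 Zfp genes in KO libraries (vertical) and in WT libraries (horizontal), both on log axes, with the line of equal level. Most points lie just under the line, and Zfp217, Zfp521, Zfp462, Zfp281 and Zfp948 lie clearly above it.

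Levels of the family spanned a wide range. Per kb of exon the mean over 4 libraries had a median of 64.3 and ran between 11.4 and 541, with Zfp281, Zfp651 (497) and Zfp106 (436) at the top. By normalized count the 8 highest means were those of Zfp106, Zfp644, Zfp704, Zfp652, Zfp91, Zfp651, Zfp292 and Zfp281. Zfp106, an RNA-binding protein needed by muscle and motor neurons, had 4649 and 4325 in KO and 4597 and 4612 in WT libraries, and the groups overlapped. It overlaps an antisense gene over 26.1% of its exon length, so its counts are uncertain. Zfp91, a ubiquitin ligase, had 3794 and 3268 in KO and 3591 and 3604 in WT libraries, and these overlapped too. Zfp292 had 2616 and 2178 in KO and 3274 and 3129 in WT libraries, and its difference of -0.42 ± 0.12 SE did not pass (limma adjusted p = 0.068). Of the 8, then, 3 were called lower and 1 higher. Among all genes of like level, with a mean of at least 100, 9.3% were called lower and 10.6% higher. A set of 8 genes is too small to compare with these shares.

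Of 46 Zfp genes with a role known with confidence, 39 were among the 225, and 4 of these were called higher and 5 lower. Both counts are near the background of genes of like level, of which 10.6% were higher and 9.3% lower. Regulators of fat, bone and cartilage fate come first. Zfp423, a related Ebf partner that marks preadipocytes, had 609 and 672 in KO and 792 and 800 in WT libraries (log2 fold change -0.31 ± 0.12 SE, limma adjusted p = 0.128), so it lay below WT without passing while its relative Zfp521 rose. Zfp516, a brown fat cofactor, had 920 and 993 in KO and 1298 and 1170 in WT libraries (-0.37 ± 0.12 SE, limma adjusted p = 0.084). Zfp467, which steers marrow cells between fat and bone, had 348 and 316 in KO and 419 and 327 in WT libraries, and the groups overlapped. Zfp219, a Sox9 partner in cartilage, had 504 and 368 in KO and 662 and 607 in WT libraries (-0.56 ± 0.18 SE, limma adjusted p = 0.091). None of these 4 passed.

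No gene with a role in imprinting, ubiquitin, SUMO or spindle control named next passed the test. Zfp445, a KRAB protein that guards imprinted genes, had 1388 and 1313 in KO and 1561 and 1540 in WT libraries (log2 fold change -0.20 ± 0.10 SE, limma adjusted p = 0.235). Zfp592, Zfp687 and Zfp532, of which the first pair share a complex with Zmynd8 in human cells, had log2 fold changes of -0.14, -0.31 and -0.27, and none passed. Zfp532 overlaps an antisense gene over 21.7% of its exon length. Zfp207, a spindle assembly protein, had 2435 and 2476 in KO and 2288 and 2320 in WT libraries, a log2 fold change of 0.09 ± 0.09 SE. Zfp451, a SUMO ligase, had 1900 and 2127 in KO and 1795 and 1969 in WT libraries, and Zfp598, a ubiquitin ligase at collided ribosomes, had 458 and 437 in KO and 423 and 445 in WT libraries. In both, the groups overlapped. Zfp703 and Zfp503, relatives with a reduced finger region, also overlapped between the groups. Zfp354c, a KRAB gene, also missed the threshold, with 763 and 788 in KO and 1039 and 1024 in WT libraries (-0.41 ± 0.11 SE, limma adjusted p = 0.051).

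Among genes for proteins that KRAB factors recruit or that act in the same silencing pathway, 1 passed the test, and it was neither Trim28 nor Setdb1. Trim28 had 1147 and 1007 normalized reads in KO libraries, against 1227 and 1086 in WT libraries (log2 fold change -0.10 ± 0.13 SE, limma adjusted p = 0.623). Setdb1 had 673 and 690 in KO and 689 and 645 in WT libraries (0.03 ± 0.12 SE, limma adjusted p = 0.881). Of 22 genes listed for this silencing pathway, all tested, 1 was higher and 0 lower by limma, and the median log2 fold change was -0.02. At an unadjusted p under 0.05, 4 of the 22 were lower, namely Atf7ip, Cbx5, Fam208a and Morc2a, with log2 fold changes of -0.35, -0.34, -0.33 and -0.40. Of all genes tested, 14.6% were lower at that p, so the count of 4 is near the background. The gene that rose was Uhrf1, which recruits Dnmt1 to replicating DNA, with 123 and 212 in KO and 7 and 32 in WT libraries (3.32 ± 0.70 SE, limma adjusted p = 0.030). Proliferation markers, as given above, were also higher in KO.

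Many Zfp genes lie in genomic clusters, and the change was read cluster by cluster. Grouping neighbours within 200 kb gave 17 clusters of at least 3 of these genes, with 81 genes in all, 61 of them with the KRAB pattern. In 15 of the 17 the median log2 fold change was below 0, and medians ran between -0.58 and 0.04. The largest cluster, 11 KRAB genes at chr13:67069399-67755228, had a median of -0.20 and 9 genes below 0. The 9 genes at chr7:29768552-30169750, which include Zfp568 and Zfp420, had a median of -0.23 and 8 below 0. The 8 KRAB genes at chr17:21383748-22071168 had a median of 0.03, with 3 genes below 0 and Zfp948 as the highest. A cluster of 4 on the same chromosome, chr17:33239718-33394641, had the lowest median, -0.58, with Zfp81 called lower. Clusters were drawn by distance alone, and sequence shared with other genes varied within them. It made up 51.8% of 50-base stretches for Zfp955a and 0.05% for Zfp568. Some neighbours may therefore share reads, and genes of a cluster are not treated as independent.

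**Figure D4:**
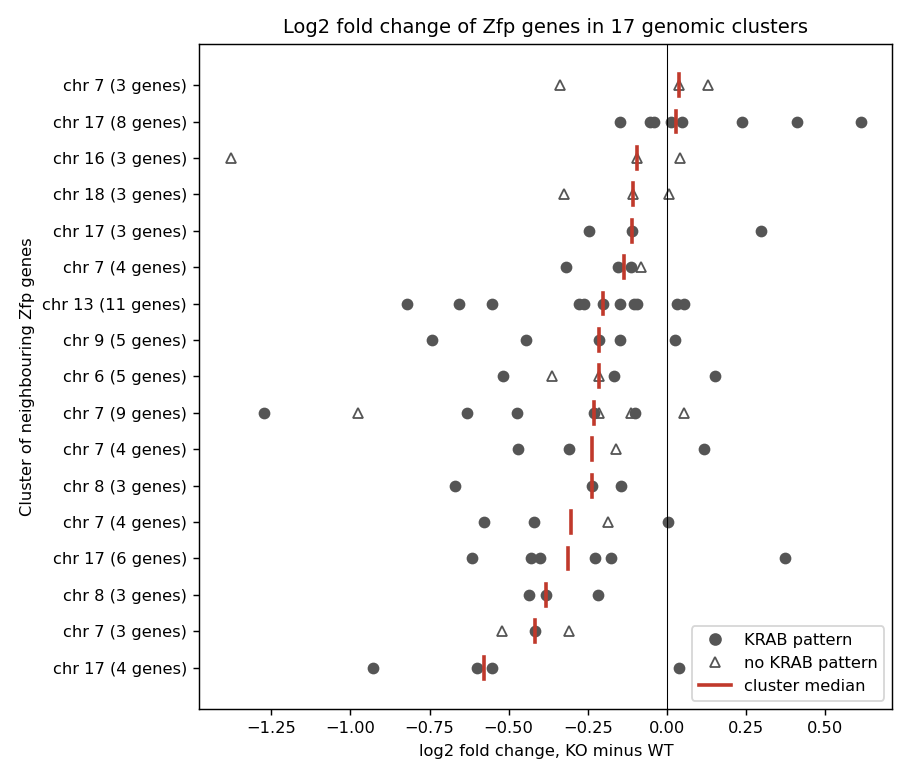
Log2 fold change, KO minus WT, of the Zfp genes in 17 genomic clusters, 1 row per cluster with its chromosome and number of genes, sorted by cluster median (red bar). Filled circles have the KRAB pattern and open triangles do not; 15 medians lie left of 0, and the chromosome 17 cluster of 8 genes lies around 0.

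Sequence shared between genes touched few calls. Of the 225 genes, 9 shared at least 20% of their 50-base stretches with another gene's transcripts and 8 overlapped another gene over at least 20% of exon length, 15 in all. Without those 15, 5 genes were higher and 21 lower. Other zinc finger families, read from the same fit, had medians close to that of the Zfp genes. Of 37 tested Zbtb genes, which pair fingers with a BTB domain, 0 were higher and 3 lower (2 and 6 at an unadjusted p under 0.05). Their log2 fold changes had a median of -0.25, with 31 below 0. The 3 called lower were Zbtb10, Zbtb38 and Zbtb44, with log2 fold changes of -0.53, -0.59 and -0.66. They make up 8.11% of the Zbtb genes, near the 6.7% of all genes tested that were called lower, while 9.58% were called higher. At an unadjusted p under 0.05, 14.6% of all genes tested were lower and 17.9% higher. Of 19 tested Zscan and Zkscan genes, 0 passed limma's test in either direction, 3 were lower and 0 higher at an unadjusted p under 0.05, and the median was -0.28 with 17 below 0. Both sets reach down to a mean of 10, unlike the Zfp genes. With a mean of at least 100, the medians were -0.25 over 31 Zbtb genes and -0.28 over 12 Zscan and Zkscan genes.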

How the data were processed

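Per the labels' protocols, total RNA of 2 KO and 2 WT samples went through ribosomal depletion and a stranded library kit. The submitters' processing notes name DESeq2 1.14.1, featureCounts 1.5.1 of Subread, STAR 2.5.2b and FastQC, with mm10/GRCm38 as build and no roles. The annotation release and the strand setting of counting were not given in the sources used here, so reads of overlapping antisense genes cannot be told apart. The authors deposited 1 table of normalized counts rounded to whole numbers, treated here as a score and not as raw counts. Size factors were therefore not redone and no count model was used.

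Values were tested as log2(value + 1) with limma 3.58.1 in R 4.3.3, with group as the single term and an intensity trend, two-sided. P-values were adjusted by Benjamini-Hochberg over all 15058 genes with a mean of at least 10. A log2 fold change is KO minus WT on that scale, which understates low genes, and SEs are limma's. An exact permutation test of 2 against 2 cannot go below p = 0.333. Replicates of a group differed beyond sampling noise (chi-square per gene 18.3 in KO and 19.7 in WT). The fit was checked on simulated data, with the same relative spread beyond sampling noise set for all genes. That setting is simpler than these libraries, so the check does not cover their real spread. Gene positions, exon lengths and proteins come from GENCODE M21, and promoter sequences from RefSeq.

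The genes and all lists were chosen with earlier results of these data known, so no count over them is independent evidence. Named genes are all called genes (up to 15 a direction in full), the 8 highest means, 3 on each side of the threshold and genes with confident roles. Values of 1 called gene are not reported here. Other pseudocounts, filters, scalings, a replicate block, leaving out each library, other mean thresholds and a looser KRAB pattern were tried.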

Additional observations from a re-analysis of the deposited data

How the results depend on the processing

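Log2 fold changes kept their sign under every alternative for 49 of 59 named genes, all 27 called Zfp genes among them, and calls were less stable. The other 10 did not pass and lay near 0. Under quantile normalization the values with the opposite sign were 0.11 for Zfp106, 0.012 for Zfp91, -0.0341 for Zfp110, -0.0121 for Zfp335, -0.013 for Zfp503 and -0.00158 for Zfp598, and at the same total 0.0456 for Zfp106 and 0.0529 for Zfp91. Leaving out 1 library at a time gave log2 fold changes on both sides of 0 for Zfp106 (-0.0903 to 0.0139), Zfp91 (-0.14 to 0.0767), Zfp110 (-0.11 to 0.12), Zfp326 (-0.00619 to 0.17), Zfp385b (-0.46 to 0.19), Zfp467 (-0.34 to 0.0202), Zfp503 (-0.11 to 0.28) and Zfp703 (-0.30 to 0.0785). With no filter on low values and with no intensity trend, limma called 0 genes in either direction over the whole table, 0 Zfp genes of either class and 0 of the KRAB cofactor list. The smallest adjusted p was then 0.0710 with no filter and 0.0643 with no trend, while 71 and 49 Zfp genes were lower, and 7 and 6 higher, at an unadjusted p under 0.05. Leaving out 1 library at a time left 0 to 587 genes called higher and 0 to 153 lower over the whole table. The same step left 0 to 2 Zfp genes higher and 0 lower, 0 to 2 higher and 0 lower without the KRAB pattern, 0 KRAB genes in either direction, and 0 to 1 of the cofactor list higher. The median log2 fold change of the 225 genes then ran between -0.27 and -0.17, that of KRAB genes between -0.35 and -0.18 and that of the others between -0.23 and -0.17. Quantile normalization gave 4 higher and 36 lower, with 20 KRAB genes lower and 0 higher, and medians of -0.31 over the 225 and -0.34 over KRAB genes. Rescaling to the same total gave 5 higher and 16 lower, with 5 KRAB genes lower, and medians of -0.14 over the 225, -0.18 for KRAB genes and -0.11 for the others. A pseudocount of 0.5 left 0 KRAB genes higher. The cause of these changes was not tested. With the replicate number as a block, 5 genes were higher and 28 lower, all 27 calls among them, and Zfp219 was called. Same-numbered libraries deviated together only weakly (correlation 0.118 over all genes tested, 0.147 over the Zfp genes), and 2 pairs with no stated sharing do not make a pairing. With a mean threshold of 50 for the family, 6 were higher and 22 lower, and with 200, 5 and 15. Depth limits the genes near the threshold of 100 most, where few reads lie behind each value.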
